A study of Mus musculus with 6 samples.

Results

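Interferon-stimulated genes are the genes that cells switch on when an interferon binds its receptor, and 33 of them were followed here in myeloid cells of the mouse heart. They were taken by name: 27 genes of the type I interferon response and 6 genes of the interferon gamma response (Gbp2, Gbp3, Gbp5, Gbp7, Cxcl9 and Cxcl10). All 33 were found among the 55487 gene identifiers of the count tables, and all 33 were among the 15707 genes with enough reads to be tested, with 122 to 5516 reads in any one library. The study sequenced RNA from 3 pools of control hearts (WT, genotype Egfr f/f, in which both Egfr alleles are floxed) and 3 pools of hearts lacking EGFR in myeloid cells (KO, Egfr mKO), all from C57BL/6 mice and with no treatment named. EGFR is the epidermal growth factor receptor, a receptor tyrosine kinase. Non-myocyte cells were freed from the hearts by enzyme digestion and enriched on magnetic beads against Cd11b, an integrin of monocytes, macrophages and granulocytes, so the libraries also hold RNA of other heart cells. The pools are named WT1 to WT3 and KO1 to KO3 as in the labels, each joins 5 hearts (6 in KO3), and the replicate is the pool rather than the animal. No label names the Cre driver or the age or sex of the mice.

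Type I interferons (interferon beta and the interferon alpha family) bind the receptor pair IFNAR1 and IFNAR2, and the kinases JAK1 and TYK2 then switch on a transcription factor complex that includes STAT2 and IRF9 and binds the interferon-stimulated response element (ISRE) in the promoters of antiviral genes. Interferon gamma, made by T and NK cells, binds IFNGR1 and IFNGR2 and acts mainly at promoter elements called gamma-activated sites (GAS), and it is the classical activator of macrophages. The 2 responses overlap: Cxcl10 and the guanylate-binding proteins also respond to type I interferon, so the split into classes follows the usual lists and is not absolute.

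The elements can be read in the promoters. In the 250 bases upstream of the start, from the RefSeq promoter table (GRCm38.p6), the ISRE-type letters (GAAA, any 2 bases, GAAA, or TTTC, any 2 bases, TTTC on the other strand, overlapping matches counted) occur in 978 of 32851 windows, 2.98%. A window was listed for 27 members and for 6, among them Oas2, Mx1 and Zbp1, there was none. At least 1 of its windows held the letters in 9 of 21 type I members (42.9%) and in 5 of 6 gamma members (83.3%). The GAS-type letters (TTC, any 3 bases, GAA), which read the same on both strands, occur in 7.02% of all windows, in 4 of 21 type I members (19.0%) and in 2 of 6 gamma members (33.3%). A match describes letters and does not show that a factor binds there. The 5 stretches below are all from members with at least 1 ISRE-type match, and capitals mark the ISRE-type and GAS-type letters. Windows of other members, such as Ifit2, Oasl1, Oasl2 and Cxcl9, held no ISRE-type match. Ifit1 (chr19:34640744-34640870, plus strand) has 2 ISRE-type matches. Of its window only the longest stretch free of annotated exons is shown, 127 bases. Isg15 (chr4:156200819-156201068, minus strand) has 3 that overlap. Oas1a (chr5:120907526-120907775, minus strand) has 2 overlapping ISRE-type matches and 1 GAS-type match. Cxcl10 (chr5:92348890-92349139, minus strand) has 1 ISRE-type match, and Gbp7 (chr3:142530086-142530335, plus strand) has 1 ISRE-type and 2 GAS-type matches.
Ifit1: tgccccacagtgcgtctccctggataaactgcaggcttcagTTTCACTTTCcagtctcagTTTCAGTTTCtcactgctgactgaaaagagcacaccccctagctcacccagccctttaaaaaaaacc
Isg15: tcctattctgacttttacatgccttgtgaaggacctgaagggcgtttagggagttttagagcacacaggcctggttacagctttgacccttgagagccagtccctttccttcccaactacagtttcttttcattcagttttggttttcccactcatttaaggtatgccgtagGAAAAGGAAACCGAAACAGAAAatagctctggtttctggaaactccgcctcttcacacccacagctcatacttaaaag
Oas1a: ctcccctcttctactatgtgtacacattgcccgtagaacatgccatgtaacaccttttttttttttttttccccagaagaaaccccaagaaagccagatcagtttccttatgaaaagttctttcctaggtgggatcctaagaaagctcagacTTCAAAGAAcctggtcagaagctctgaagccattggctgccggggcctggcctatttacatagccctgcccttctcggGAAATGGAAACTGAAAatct
Cxcl10: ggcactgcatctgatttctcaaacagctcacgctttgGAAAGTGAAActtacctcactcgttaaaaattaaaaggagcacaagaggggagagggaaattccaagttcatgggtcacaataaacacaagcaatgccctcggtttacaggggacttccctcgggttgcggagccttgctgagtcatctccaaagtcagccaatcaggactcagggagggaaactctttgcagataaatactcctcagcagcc
Gbp7: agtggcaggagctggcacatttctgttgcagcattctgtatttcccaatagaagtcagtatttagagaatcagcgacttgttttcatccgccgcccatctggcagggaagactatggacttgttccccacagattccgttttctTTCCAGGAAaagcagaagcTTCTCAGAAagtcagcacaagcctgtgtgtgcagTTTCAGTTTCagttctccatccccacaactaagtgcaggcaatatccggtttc

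The libraries held 17780707 to 27485129 reads in genes, and levels are given as CPM, the counts scaled to a library size of 1 M reads. Egfr was at 54.7, 43.0 and 44.7 CPM in WT1 to WT3 and at 18.5, 16.0 and 17.4 in KO1 to KO3 (log2 fold change -1.46, edgeR adjusted p = 0.0449), so the labels held for the targeted gene, although its transcript was not absent from the KO pools. Macrophage and myeloid markers were abundant in every library, and their summed level was 10820, 5802 and 7352 CPM in WT1 to WT3 and 11120, 10880 and 11550 CPM in KO1 to KO3. WT2 and WT3 were thus poorer in these markers than the other 4 pools. Fibroblast markers summed to 1768, 3655 and 5664 CPM in the WT pools and 1330 to 1991 CPM in the KO pools, endothelial markers to 1729, 2076 and 2890 CPM against 949 to 1220 CPM, and neutrophil markers to 1771, 886 and 508 CPM against 2553, 605 and 613 CPM. In such mixed libraries fewer cells of a type and less RNA per cell cannot be told apart.

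The interferon-stimulated genes were expressed in every pool at levels that spanned 2 orders of size. Per kilobase of exon, the scale on which genes can be compared with each other, Bst2 was highest with a mean of 115 CPM per kb. It encodes tetherin, which holds budding virus particles at the cell surface. Isg15, a ubiquitin-like modifier, followed with 65.9, then Gbp2 with 52.8, Cxcl10 with 47.3 and Oas2 with 34.1 CPM per kb. Ifi44 with 1.09 and Herc6 with 1.34 CPM per kb were lowest, and the highest level was 106 times the lowest.

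**Figure D1:**
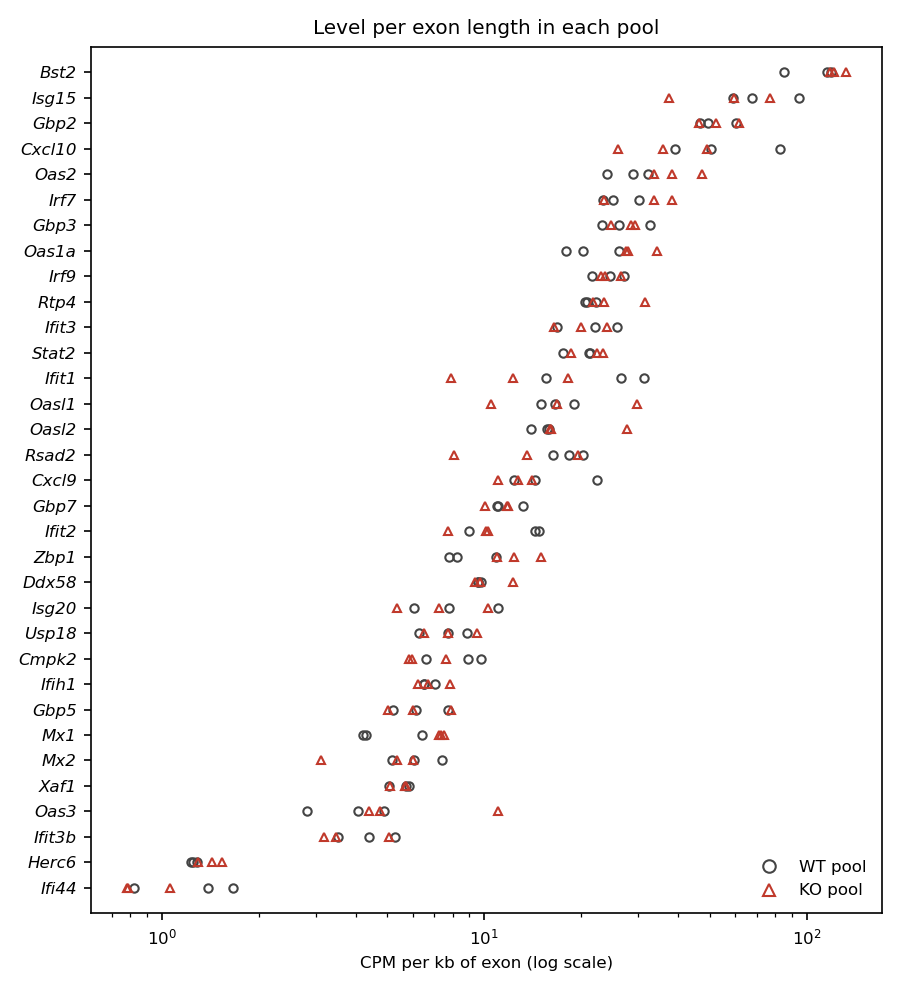
Level of the 33 interferon-stimulated genes in CPM per kilobase of exon on a log axis, with 1 point for each of the 3 WT and 3 KO pools. Bst2, Isg15 and Gbp2 have means above 50 CPM per kb, and Ifi44 and Herc6 have the lowest means.

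None of the 33 genes passed the test between KO and WT. At an adjusted p under 0.05 in edgeR's quasi-likelihood test, 0 of 33 members were called higher (0% of all 15707 genes were) and 0 of 33 lower (0.0127% of all genes, 2 genes, which is also 0.0127% for either direction). At an unadjusted p under 0.05, 5 of 33 members (15.2%) were counted, against 15.3% of all genes. The members higher in KO at that level were Oas1a, Oas2, Mx1 and Zbp1 (4.77% of all genes were higher at that level), and the lower member was Ifit1 (10.6% of all genes were lower). DESeq2 also called 0 of 33, while it called 1.13% of genes higher and 4.39% lower, and limma-voom called 0 of 33. Among type I members the log2 fold change was above 0 in 15 and below 0 in 12 (median 0.05). Among gamma members it was above 0 in 2 and below 0 in 4 (median -0.04), and the median over all genes was 0.0072. The 95% interval of the fold change lay within 2-fold either way for 28 of 33 members (84.8%), against 64.6% of all genes.

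The KO pools lay above all WT pools in 6 members, Oas1a, Oas2, Oasl2, Herc6, Mx1 and Zbp1 (18.2%, against 9.59% of all genes), and below all WT pools in 0 members (10.1% of all genes). Either kind of separation held for 19.7% of all genes, against 18.2% of members. The gaps for Zbp1, Oasl2 and Herc6 were small: the highest WT and lowest KO values were 38.52 and 38.61 CPM for Zbp1, 100.9 and 102.3 CPM for Oasl2, and 11.97 and 12.07 CPM for Herc6. With relative log expression scaling Zbp1 overlapped, and with upper-quartile scaling Herc6 overlapped while Bst2 and Rtp4 separated.

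**Figure D2:**
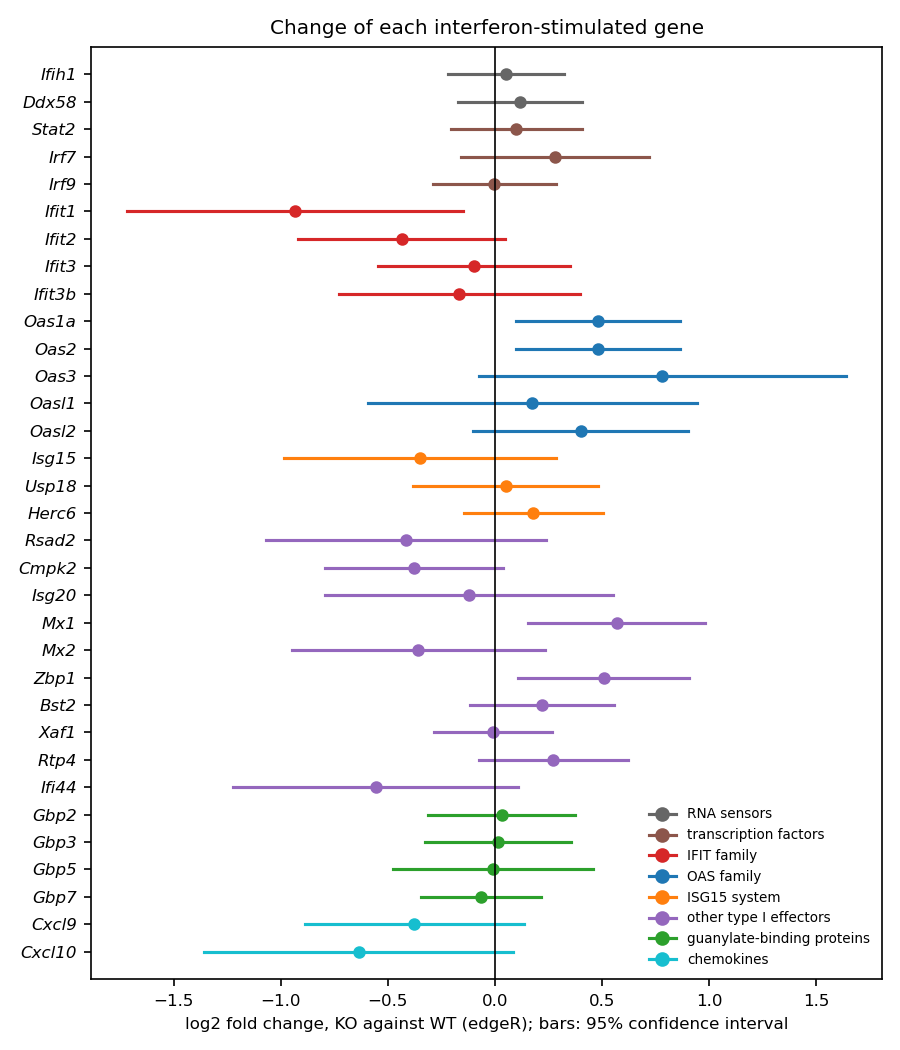
Log2 fold change of KO against WT for the 33 genes, grouped by role, with the 95% interval of edgeR's fit as bars. Positive values mean higher in KO. The 5 OAS genes lie right of zero, the 4 IFIT genes and both chemokines left of it, and the 4 guanylate-binding proteins lie close to it, between -0.06 and 0.03.

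The RNA sensors Ifih1 (MDA5) and Ddx58 (RIG-I), which detect viral RNA in the cytosol, overlapped between the groups. Ifih1 was at 53.0, 53.0 and 57.6 CPM in the WT pools and 64.0, 50.8 and 54.7 CPM in the KO pools (log2 fold change 0.05, SE 0.12). Ddx58 was at 67.6, 69.0 and 67.3 CPM in the WT pools and 86.7, 66.0 and 68.4 CPM in the KO pools (0.12, SE 0.13). In both genes KO1 was the highest pool and KO2 the lowest.

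Among the transcription factors, Stat2 and Irf9 are parts of the ISRE-binding complex, and Irf7 amplifies the production of interferon alpha. Irf7 was at 94.7, 88.1 and 113.7 CPM in the WT pools and 144.8, 88.7 and 126.5 CPM in the KO pools (log2 fold change 0.28, SE 0.19, edgeR adjusted p = 0.526). The groups overlapped, with KO2 and WT2 together at the low end. Stat2 had a log2 fold change of 0.10 and Irf9 of -0.0028, and their WT and KO pools overlapped. 

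The IFIT proteins bind viral RNA that lacks host cap marks and block its translation. Their 4 genes lie within 1 cluster on chromosome 19, and all 4 log2 fold changes were negative (median -0.30). Ifit1 (chr19:34640871-34650009, plus strand, GRCm38) was at 41.3, 70.3 and 83.2 CPM in the WT pools and 48.2, 21.0 and 32.7 CPM in the KO pools. The groups overlapped because WT1 was below KO1. Its means were 64.9 ± 21.5 CPM in the WT pools and 33.9 ± 13.7 CPM in the KO pools (SD, n = 3 pools each), a log2 fold change of -0.93 with SE 0.34 and a 95% interval from -1.72 to -0.15 (edgeR adjusted p = 0.261, DESeq2 adjusted p = 0.0665). It varied most of all members, 3.97-fold from the lowest to the highest pool. Ifit2 was at 35.2, 58.0 and 56.6 CPM in the WT pools and 39.8, 30.4 and 40.4 CPM in the KO pools (-0.44, SE 0.21, edgeR adjusted p = 0.367). In Ifit2 the low WT pool was again WT1. Ifit3 and its near-identical neighbour Ifit3b had log2 fold changes of -0.10 and -0.17 and overlapping pools. How reads that fit both copies were counted is not stated, so these values are uncertain. KO2 was the lowest pool for all 4 genes.

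The OAS genes showed the other direction. OAS1, OAS2 and OAS3 make 2'-5' oligoadenylates on sensing double-stranded RNA, which activate RNase L, and the OAS-like genes are related proteins, of which Oasl1 restrains the translation of Irf7. All 5 log2 fold changes were positive (median 0.48). Oas2 (chr5:120730333-120749853, minus strand) was at 143, 107 and 129 CPM in the WT pools and 211, 149 and 169.9 CPM in the KO pools. Every KO pool was above every WT pool, and the means were 127 ± 18.1 and 177 ± 31.2 CPM (SD, n = 3 each), with a log2 fold change of 0.48, SE 0.17 and edgeR adjusted p = 0.247. Oas1a (chr5:120896256-120907521, minus strand) was at 49.4, 33.7 and 38.1 CPM in the WT pools and 64.9, 52.6 and 52.0 CPM in the KO pools. Its log2 fold change was 0.48 with SE 0.17 and a 95% interval from 0.096 to 0.87 (edgeR adjusted p = 0.248), and WT1 was the WT pool closest to KO. It is closely related to its neighbour Oas1g, and reads fitting both are uncertain in the same way.

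For the other 3 genes of the family, 1 pool carried much of the difference. Oas3 was at 34.5, 28.7 and 20.0 CPM in the WT pools and 78.3, 31.1 and 33.7 CPM in the KO pools (log2 fold change 0.78, SE 0.37, edgeR adjusted p = 0.365). KO1 was far above all others, KO2 and KO3 lay within the WT range, and the log2 fold change ranged from 0.23 without KO1 to 1.02 when another pool was left out. Oasl1 was at 43.3, 39.1 and 49.4 CPM in the WT pools and 77.8, 27.3 and 43.8 CPM in the KO pools (0.17, SE 0.33), and without KO1 its log2 fold change was -0.30. Oasl2 was at 99.7, 89.0 and 100.9 CPM in the WT pools and 177, 102.8 and 102.3 CPM in the KO pools (0.40, SE 0.22), and without KO1 it was 0.09. KO1 was the highest pool for all 5 OAS genes.

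**Figure D3:**
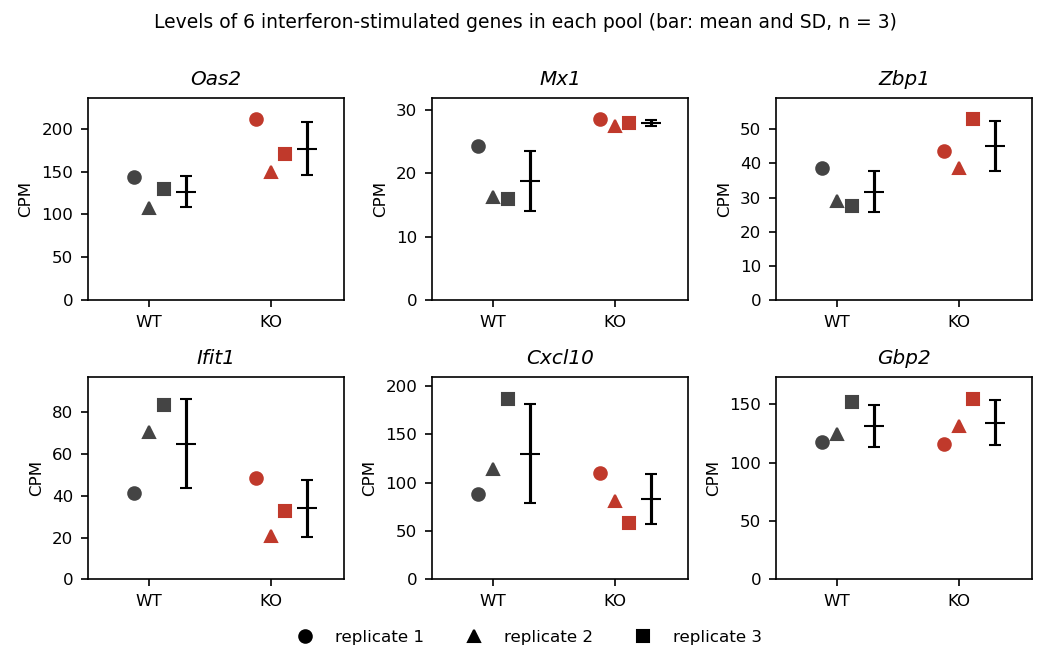
CPM of Oas2, Mx1, Zbp1, Ifit1, Cxcl10 and Gbp2 in the WT (grey) and KO (red) pools, with marker shape for the replicate number and bars for the mean and SD over 3 pools. Oas2, Mx1 and Zbp1 separate by group (Zbp1 by 38.52 against 38.61 CPM), while Ifit1, Cxcl10 and Gbp2 overlap.

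The ISG15 system attaches the ubiquitin-like protein ISG15 to other proteins, with Herc6 as the mouse ligase and Usp18 as the protease that removes it and also damps signalling from the type I receptor. Isg15 (chr4:156199424-156200818, minus strand) was at 51.3, 44.6 and 71.6 CPM in the WT pools and 58.1, 28.2 and 44.95 CPM in the KO pools (log2 fold change -0.35, SE 0.27, edgeR adjusted p = 0.584). The groups overlapped, with the extremes in WT3 and KO2, and the log2 fold change was -0.11 without KO2, -0.13 without WT3 and -0.61 without KO1. Usp18 differed by 0.05 and Herc6 by 0.18 on the log2 scale, the latter with pools of 11.4 to 12.0 CPM in the WT pools and 12.1 to 14.3 CPM in the KO pools. Of the exon bases of Herc6, 13.7% are shared on the same strand with Gm45193.

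Among the other type I effectors, Mx1 and Zbp1 had the smallest p-values in the KO direction. Mx1 encodes a dynamin-like GTPase that blocks influenza viruses and is inactivated by a deletion in common laboratory strains. Mx1 (chr16:97447035-97462907, minus strand) was at 24.3, 16.3 and 16.0 CPM in the WT pools and 28.5, 27.5 and 27.9 CPM in the KO pools. The 3 KO pools lay close together and above all WT pools, of which WT1 was highest, and the log2 fold change was 0.57 with SE 0.18 and a 95% interval from 0.15 to 0.98 (edgeR adjusted p = 0.233, DESeq2 adjusted p = 0.0924). Its neighbour Mx2 had the opposite sign, with 18.7, 21.8 and 26.7 CPM in the WT pools and 19.4, 11.3 and 21.8 CPM in the KO pools (-0.36, SE 0.25, and -0.12 without KO2), and its groups overlapped. Zbp1, a sensor of Z-form nucleic acid that can start necroptosis, was at 38.5, 29.0 and 27.5 CPM in the WT pools and 43.6, 38.6 and 52.9 CPM in the KO pools (chr2:173206612-173218923, minus strand, log2 fold change 0.51, SE 0.17, edgeR adjusted p = 0.246).

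Rsad2 (viperin) and Cmpk2 lie side by side on chromosome 12 and both act on nucleotides, viperin by making a chain-terminating form of CTP. Rsad2 was at 71.1, 79.2 and 87.9 CPM in the WT pools and 85.0, 35.0 and 58.6 CPM in the KO pools (log2 fold change -0.41, SE 0.28, ranging from -0.14 without KO2 to -0.76 without KO1). Cmpk2 was at 27.4, 37.1 and 40.6 CPM in the WT pools and 31.8, 24.8 and 24.3 CPM in the KO pools (-0.38, SE 0.18, edgeR adjusted p = 0.367). In both, WT3 was highest and KO1 lay within the WT range. Of the remaining effectors, Bst2 had a log2 fold change of 0.22, Rtp4 of 0.27, Isg20, an exonuclease, of -0.12, Ifi44 of -0.56 with SE 0.29, and Xaf1 of -0.01. Xaf1 was the steadiest member, with a 1.15-fold range over the 6 pools. Of the exon bases of Rtp4, 13.9% are shared with Gm45338.

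In the gamma class the guanylate-binding proteins differed little between the group means, while both chemokines had lower means in KO. The guanylate-binding proteins are large GTPases that coat and break the vacuoles of intracellular microbes, and their 4 genes, in 1 cluster on chromosome 3, had a median log2 fold change of 0.0021. Gbp2 (chr3:142620602-142638008, plus strand) was at 118, 125 and 152 CPM in the WT pools and 116, 131 and 155 CPM in the KO pools, with a log2 fold change of 0.03, SE 0.15 and a 95% interval from -0.31 to 0.38. Gbp3 differed by 0.01, Gbp5 by -0.01 and Gbp7 (chr3:142530342-142550149, plus strand) by -0.06. Of the exon bases of Gbp7, 11.4% are shared with Gm43802. WT and KO pools overlapped for all 4. From the lowest to the highest pool the 4 genes varied from 1.31-fold (Gbp7) to 1.58-fold (Gbp5).

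The chemokines Cxcl9 and Cxcl10 bind CXCR3 and draw activated T and NK cells. Cxcl10 (chr5:92346638-92348889, minus strand) was at 88.0, 114 and 187 CPM in the WT pools and 110.4, 80.9 and 58.7 CPM in the KO pools. The groups overlapped through WT1 and KO1, with means of 129.6 ± 51.2 and 83.3 ± 25.9 CPM (SD, n = 3 each). Its log2 fold change was -0.64 with SE 0.31 and a 95% interval from -1.36 to 0.085 (edgeR adjusted p = 0.375), and it moved to -0.27 without WT3. Cxcl9 was at 37.3, 43.4 and 67.7 CPM in the WT pools and 38.5, 33.4 and 42.4 CPM in the KO pools (-0.38, SE 0.22, edgeR adjusted p = 0.46), and it moved to -0.08 without WT3. WT3 was the highest pool for both genes.

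The balance between the 2 classes overlapped between the genotypes. The mean log2 CPM of the 27 type I genes was 5.29, 5.26 and 5.43 in WT1 to WT3 and 5.61, 5.06 and 5.36 in KO1 to KO3. For the 6 gamma genes it was 6.05, 6.09 and 6.58 in WT and 6.11, 6.02 and 6.11 in KO. The gamma minus type I difference, which cancels what both classes share in a pool, was 0.75, 0.83 and 1.15 in WT (mean 0.91, SD 0.21) and 0.49, 0.96 and 0.75 in KO (mean 0.73, SD 0.24). The KO minus WT difference of these means was -0.18 on the log2 scale, the groups overlapped, and it ranged from -0.29 to -0.06 as single pools were left out. The median size of the log2 fold change, signs set aside, was 0.28 for type I members, 0.0477 for gamma members and 0.207 for all genes.

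**Figure D4:**
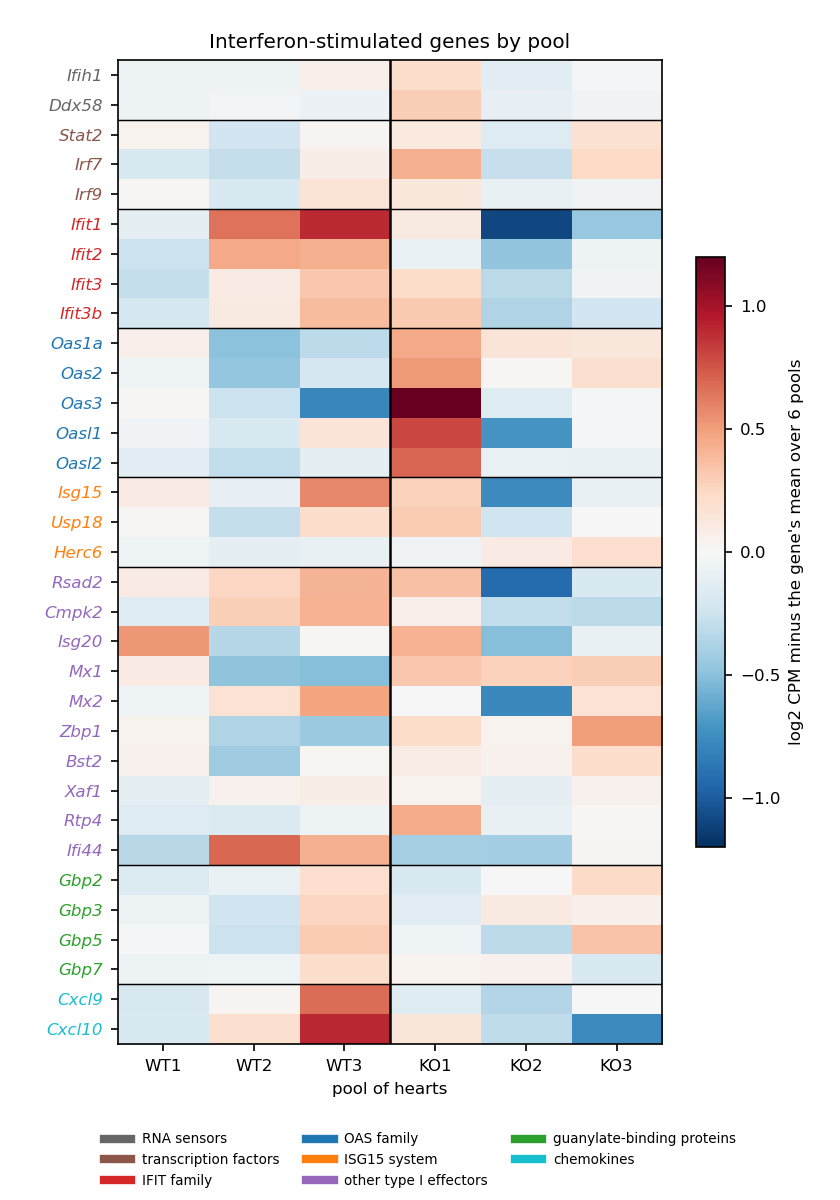
Deviation of each of the 33 genes from its mean log2 CPM over the 6 pools, in log2 units, with genes in rows by role and pools in columns (red above, blue below the mean). KO1 is high across the OAS genes, KO2 is low across the IFIT genes, Isg15 and Rsad2, and WT3 is high for the chemokines and most guanylate-binding proteins.

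The spread between pools of 1 genotype was often as large as that between genotypes. KO1 was the highest pool for 11 of 27 type I members (40.7%, against 15.2% of all genes) and WT3 for 9 (33.3%, against 25.9%). KO2 was the lowest pool for 12 of 27 (44.4%, against 17.6% of all genes) and WT2 for 10 (37.0%, against 25.9%). Of the 6 gamma members, WT3 was the highest pool for 4 and KO3 for 2. The KO group thus held both the pool with the highest and the pool with the lowest mean level of type I members. Over the 6 pools, 9 members ranged less than 1.5-fold and 10 more than 2-fold, among them Oas3 with 3.92-fold, Cxcl10 with 3.18-fold, Oasl1 with 2.85-fold, Isg15 with 2.54-fold and Rsad2 with 2.51-fold.

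Marker levels of the cell types moved along with several members in some pools and not in others. The WT pool nearest to KO for Oas1a, Oas2, Mx1 and Zbp1 was WT1, whose summed macrophage marker level (10820 CPM) was close to that of the KO pools. All 12 macrophage and myeloid markers tested had values above 0 (median log2 fold change 0.42), and 0 were called by edgeR. B cell markers stood further apart than these: all 7 had values above 0 (median 0.63). Of them, 0 were called by edgeR (0% of all genes were higher) and 3 by DESeq2 (1.13%). Every KO pool was above every WT pool in 5 (9.59% of all genes). The B cell sum was 581, 528 and 491 CPM in WT1 to WT3 and 773, 1244 and 799 CPM in KO1 to KO3. Endothelial, mural cell and fibroblast markers went the other way and by more. All 8, 7 and 7 had values below 0 (medians -1.10, -0.94 and -1.13). DESeq2 called 8, 6 and 5 of them lower (4.39% of all genes) and edgeR called 0 (0.0127%). Every KO pool was below every WT pool in 8, 6 and 0 (10.1% of all genes). Per 1000 CPM of the macrophage sum, a scaling chosen after seeing the data, Mx1 was at 2.24, 2.80 and 2.17 in WT and 2.56, 2.53 and 2.41 in KO, and Oas2 at 13.2, 18.5 and 17.6 in WT and 18.9, 13.7 and 14.7 in KO. On that scale every one of the 6 separated members overlapped: 0 of 33 lay above all WT pools (0.688% of all genes) and 1, Isg20, below (26.7%). Ifit1, Ifit2, Cxcl9 and Cxcl10 were lowest among the WT pools in WT1, where the fibroblast and endothelial sums were lowest too. Among the KO pools these sums ran against each other. KO1 had the highest fibroblast and lowest endothelial sum (1991 and 949 CPM), and the highest Ifit1 and Cxcl10 (48.2 and 110.4 CPM). KO3 had the lowest fibroblast and highest endothelial sum (1330 and 1220 CPM), and the highest Ifit2 and Cxcl9 (40.4 and 42.4 CPM). KO1, the highest pool for the OAS genes, also had the highest neutrophil sum, 2553 CPM. WT1 came next with 1771 CPM, and it was the highest WT pool for Oas1a, Oas2 and Oas3 but not for Oasl1 or Oasl2. KO2 and KO3, with 605 and 613 CPM, were still above WT1 for Oas1a, Oas2 and Oasl2, though not for Oas3. The part of the cell mixture in these values was not tested.

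**Figure D5:**
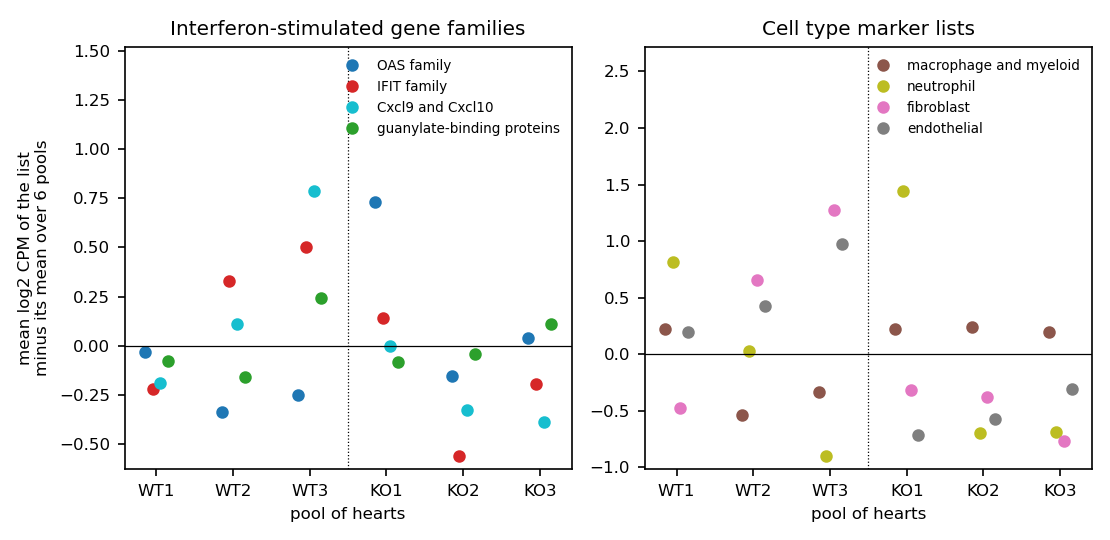
Left: mean deviation of log2 CPM from the 6-pool mean for the OAS, IFIT, Cxcl9 and Cxcl10, and GBP genes in each pool. Right: the same for the macrophage, neutrophil, fibroblast and endothelial marker lists. Each point is 1 list in 1 pool. The OAS genes and the neutrophil markers are highest in KO1, and the IFIT genes, the chemokines and the fibroblast and endothelial markers are highest in WT3.

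Leaving out WT1 changed which members passed the test. Without it, edgeR called Mx1 (log2 fold change 0.80, adjusted p = 0.0176), Oas1a (0.66, adjusted p = 0.0404) and Zbp1 (0.68, adjusted p = 0.0466) higher in KO and Ifit2 (-0.63, adjusted p = 0.0485) lower. In that comparison of 3 KO with 2 WT pools 2.33% of all genes were called higher and 5.97% lower, and the 2 WT pools left are those with the lowest macrophage sums. WT1 also stood apart in erythroid markers, which summed to 1876 CPM there and to 36.2 to 142 CPM in the other 5 pools, and in its distance from the other WT pools (chi-square per degree of freedom over gene counts of 69.8 and 76.5, against 34.7 to 41.7 for the other pairs within a group). WT2, which stays in that comparison, stood apart in T and NK cell markers. It was the highest pool for all 12 of them, with a sum of 470 CPM against 43.1 to 212 CPM in the other 5 pools. Ifit1 passed in edgeR when no expression filter was used (-0.93, adjusted p = 0.0373), where 2.22% of all genes were called lower.

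The interferon transcripts themselves were scarce. Of 21 ligand genes, 13 had 0 reads in every pool, 6 had at most 3 reads in any pool, and Ifnb1, interferon beta, had enough reads to be tested. Ifnb1 had 50, 30 and 57 reads in WT and 100, 14 and 17 reads in KO, or 1.92, 1.56 and 2.65 CPM against 3.82, 0.55 and 0.66 CPM (log2 fold change -0.29, SE 0.71, edgeR adjusted p = 0.884). The value was -0.82 with limma-voom and -0.78 with a replicate block, and neither fit called it. KO1 was the highest pool for Ifnb1, as for both RNA sensors. The low pools KO2 and KO3, with 14 and 17 reads, were too close to rank. Ifng, interferon gamma, had 8, 12 and 0 reads in WT and 4, 11 and 10 reads in KO, too few to pass the expression filter, and the 0 in WT3 allows up to 0.14 CPM (3 reads, counting error only). Of the exon bases of Ifng, 25.9% are shared on the same strand with Gm49751, where reads may be counted as ambiguous, so this limit may be too low. WT3 was the highest pool for Cxcl9 and Cxcl10. Ifng counts were too low to rank the pools, and a link between Ifng and these chemokines was not tested.

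The interferon receptors had slightly higher means in KO, none past the test. The log2 fold change was above 0 in all 6 receptor genes (median 0.23), and 0 were called. Il10rb, a subunit of the lambda interferon and IL-10 receptors, was at 76.8 ± 14.2 CPM in the WT pools and 100.9 ± 5.66 CPM in the KO pools (SD, n = 3 each), a log2 fold change of 0.39 with edgeR adjusted p = 0.267. Ifngr2 differed by 0.35, Ifnar2 by 0.25 and Ifnar1 by 0.21. Of the exon bases of Il10rb and Ifnar2, 14.9% and 9.46% are shared on the same strand with Gm21970. Of 14 JAK-STAT and IRF genes 11 were positive, with a median of 0.20 and 0 called. Ptpn6 (SHP-1, a phosphatase of haematopoietic cells) differed by 0.50 (edgeR adjusted p = 0.246), and Irf5 and Irf8, factors of the macrophage lineage, by 0.43 and 0.29. Socs1, an inhibitor of JAK kinases that is itself induced by interferon gamma, was at 21.5, 34.6 and 42.1 CPM in the WT pools and 20.6, 19.3 and 22.1 CPM in the KO pools (-0.66, edgeR adjusted p = 0.249). WT1 lay among the KO pools for Socs1. Without WT1, edgeR called Il10rb, Ptpn6 and Irf5 higher and Socs1 lower (2.33% and 5.97% of all genes).

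Of 17 genes of nucleic acid sensing, 16 were tested, the log2 fold change was above 0 in 14 (median 0.19), and 0 were called. Dhx58 (LGP2, the partner of MDA5 and RIG-I) differed by 0.43, Tlr7, the endosomal sensor of single-stranded RNA, by 0.65, Aim2, a DNA sensor, by 0.31 and Traf3, a signalling adaptor, by 0.22, with edgeR adjusted p-values of 0.221, 0.35, 0.367 and 0.321. The macrophage markers also had positive values, with a median of 0.42. The medians were 0.23, 0.20 and 0.19 for the receptor list, the JAK-STAT and IRF list and the sensing list. The part of the cell mixture in the values of these lists was not tested.

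Other targets of type I interferon, a list of 35 genes all tested, were mostly somewhat higher in KO without passing the test. The log2 fold change was above 0 in 31 (median 0.16), 0 were called by edgeR, and at an unadjusted p under 0.05 there were 10 higher and 1 lower. All genes gave 4.77% and 10.6% at that level. Every KO pool lay above every WT pool in 11 of 35 and below in 1 (9.59% and 10.1% of all genes). The macrophage markers (12 of 12 above 0, median 0.42) and the B cell markers (7 of 7, median 0.63) had values in the same direction, and their part in the list's values was not tested. Ifi27l2a was at 147 ± 12.4 CPM in the WT pools and 221 ± 24.2 CPM in the KO pools (SD, n = 3 each), a log2 fold change of 0.59 with edgeR adjusted p = 0.179. Oas1g, the neighbour of Oas1a, was at 10.1 ± 0.985 CPM in the WT pools and 16.9 ± 2.43 CPM in the KO pools (0.75, edgeR adjusted p = 0.179). Phf11b differed by 0.67 and Epsti1 by 0.55. DESeq2 called Ifi27l2a, Oas1g and Phf11b higher (1.13% of all genes), and edgeR without WT1 called these and Epsti1 higher (2.33%). Slfn5 was the lower gene, with -0.43 and edgeR adjusted p = 0.263.

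Other targets of interferon gamma, 28 genes of which 27 were tested, went both ways. The log2 fold change was above 0 in 15 and below 0 in 12 (median 0.10), with 0 called by edgeR, and 7 higher and 4 lower at an unadjusted p under 0.05 (4.77% and 10.6% of all genes). Gbp2b, a further guanylate-binding protein, was at 4.31, 2.66 and 2.89 CPM in the WT pools and 7.64, 14.9 and 11.1 CPM in the KO pools, a log2 fold change of 1.76 with SE 0.31 (edgeR adjusted p = 0.152). It separated the groups, unlike the 4 GBP members. Psmb9, a subunit of the immunoproteasome, differed by 0.50, Serpina3g, a protease inhibitor, by 1.10 and Nlrc5, the activator of MHC class I genes, by 0.44, with edgeR adjusted p-values of 0.181, 0.185 and 0.192. The 4 lower genes, singled out after their values were seen, were Tgtp1, Iigp1, Irgm1 and Gbp4, GTPases that interferon gamma induces against vacuolar pathogens. Iigp1 was at 94.4, 121 and 177 CPM in the WT pools and 76.9, 67.4 and 90.8 CPM in the KO pools (-0.74, edgeR adjusted p = 0.228), with every KO pool below every WT pool. Tgtp1 was at 5.89, 8.65 and 12.9 CPM in the WT pools and 3.13, 3.10 and 5.01 CPM in the KO pools (-1.29, edgeR adjusted p = 0.196). Irgm1 differed by -0.56 and Gbp4 by -0.63. Over the list every KO pool lay above every WT pool in 9 of 27 genes and below in 2 (9.59% and 10.1% of all genes). As for Cxcl10, WT3 was the highest pool for Iigp1 and Tgtp1. DESeq2 called Gbp2b, Serpina3g, Nlrc5, Psmb9 and Ciita, the activator of MHC class II genes, higher and Iigp1 and Tgtp1 lower (1.13% and 4.39% of all genes). Without WT1, edgeR called those 5 genes higher and Iigp1, Tgtp1 and Irgm1 lower (2.33% and 5.97% of all genes). The median of the list was then -0.0098.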

How the data were processed

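RNA of 6 pools of Cd11b-enriched cardiac cells was extracted with RNeasy kits and made into libraries with a directional NEBNext kit, per the labels' protocols. The deposited files hold whole-number read counts per Ensembl gene, not normalized. The submitters' processing notes name STAR, HTSeq, DESeq2 and the build GRCm38, without their roles. For versions, annotation release and strand setting the entry is: not given in the sources used here. Of 55487 identifiers, 55141 were matched to a symbol. The counter's own lines were left out of library sizes: reads outside genes made up 5.90 to 8.62% of all reads, ambiguous ones 1.49 to 1.72% and multiply mapped ones 7.58 to 8.67%.

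Counts were filtered with filterByExpr (minimum count 10), scaled by TMM and tested KO against WT with edgeR 4.0.16 (quasi-likelihood F test, all 6 pools, no covariate, Benjamini-Hochberg adjustment over 15707 genes) in R 4.3.3. The SE of a log2 fold change is its size over the root of F. CPM are TMM-scaled. Alternatives were DESeq2 1.42.0, limma-voom 3.58.1, other scalings, other filters, a replicate block and leaving out each pool. Nothing states that pools came from separate cohorts, so p-values set the difference between genotypes against the spread between these pools only. Replicates differed well beyond sampling noise. Coordinates and exon lengths are from GENCODE M21 (GRCm38). The edgeR steps were tested on simulated data. Figures were drawn with matplotlib 3.10.9.

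Full values are given for members with the largest range, the smallest p or the highest mean CPM and for at least 1 member of each role, and of each pathway list for up to 4 genes with the smallest edgeR p and a mean of at least 1 CPM. The members and lists were chosen with earlier results of these data known. Where groups overlap or separate, 3 against 3 pools could not give an exact permutation p below 0.1, and no such test was used. The values of 1 gene of the pathway lists are not reported here.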

Additional observations from a re-analysis of the deposited data

How the results depend on the processing

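Over all genes, edgeR called 0 higher and 2 lower in KO. DESeq2 called 170 higher and 661 lower, edgeR without an expression filter 139 and 643, limma-voom 1 lower, and edgeR with the replicate number as a block 2 higher and 1 lower. Leaving out 1 pool gave 0 to 376 higher and 1 to 962 lower, the most without WT replicate 1. Members called higher numbered 0 to 3 and members called lower 0 to 1 when a pool was left out, and 1 member was lower without the filter. With the replicate block 0 members were called, and same-numbered pools did not deviate together (correlations 0.0968, -0.16 and 0.00601), so the numbers were not taken as pairs. Over 13 settings 21 of 33 members kept their sign and 12 did not. Signs turned for Gbp3 at a mean of at least 5 CPM (-0.0104), for Gbp5 (0.0039), Irf9 (0.0102) and Xaf1 (0.0024) with upper-quartile scaling, and for Irf9 with limma-voom (0.0021) and with the block (0.00093). Leaving out 1 pool gave ranges of -0.0123 to 0.195 for Ddx58, -0.0447 to 0.126 for Ifih1, -0.0905 to 0.151 for Gbp2, -0.10 to 0.17 for Gbp3, -0.21 to 0.15 for Gbp5, -0.116 to 0.034 for Gbp7, -0.244 to 0.055 for Ifit3, -0.0943 to 0.0836 for Irf9, -0.39 to 0.14 for Isg20, -0.30 to 0.47 for Oasl1, -0.10 to 0.18 for Usp18 and -0.0638 to 0.0458 for Xaf1. The medians ranged from -0.04 to 0.18 for type I and from -0.15 to 0.09 for gamma members. The cause was not tested. Depth did not limit the members, the lowest count being 122 reads. Ifng did not pass the expression filter with all 6 pools, and without WT replicate 1, where it did, its log2 fold change was 0.0912 (edgeR adjusted p = 0.97).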
